A study of Schizosaccharomyces pombe with 6 samples.

Results

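The inv1 gene of fission yeast (Schizosaccharomyces pombe) encodes the secreted invertase that splits sucrose into glucose and fructose. It was covered by 59 of the 43993 probes of a tiling array, all those that lie in the inv1 patch of chromosome III and are not control spots. Probes are 60 bases long and start every 50 bases. Most of them lie on chromosome II, so the array does not cover the whole genome. Long noncoding RNA genes aside, 963 genes had at least 2 probes. Array ranks and shares given over all genes refer to these 963. Of the 59 probes, 16 lie before the coding start, 35 in the coding sequence and 8 after the stop codon, and 53 fall in the annotated gene.

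The arrays measured nucleosome turnover, that is, how much newly made histone H3 enters chromatin while DNA replication is held. The tested strains were amo1D, rix1E414K and pob3D, with 1 array each, and the wild type (WT) had 3 arrays. The amo1D strain lacks amo1, a gene for a nuclear rim protein, rix1E414K carries an altered subunit of the rixosome, and pob3D lacks a subunit of the histone chaperone FACT. Mutant and WT cells alike carried the plasmid pINV1-H3.2-FLAG, grew in medium with 8% glucose, and received 15 mM hydroxyurea, an inhibitor of DNA synthesis, for 4 h. They were then moved to medium with 4% sucrose and the same drug for 2 h, which induces FLAG-tagged H3. All cells were fixed with 1% formaldehyde for 20 min. DNA bound to FLAG-H3 was labelled with Cy5 and whole-cell extract DNA with Cy3 on all arrays, with no dye swap. The reported level is log2 of Cy5 over Cy3, centred on the median probe of each array, so that 0 is the median probe and a shift common to the whole array cannot be seen. Total H3 was not measured. The slides paired amo1D with WT replicate 1, rix1E414K with replicate 2 and pob3D with replicate 3. Separate cultures are not stated for the WT arrays, so the spread behind all p-values may be technical.

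In fission yeast, glucose keeps inv1 off, in part through the zinc-finger repressor Scr1, and the gene comes on when glucose is replaced by another sugar. Its promoter is used on plasmids as a sugar switch for that reason. Both inv1 itself and the FLAG-H3 plasmid were therefore under inducing conditions in these cells. By its name in the labels, the plasmid joins the inv1 promoter to an H3 gene. Plasmid and chromosomal copies of the same DNA cannot be told apart on the array, and the labels do not give the ends of the cloned promoter.

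In the reference (ASM294v3), inv1 lies on the plus strand of chromosome III from 1723434 to 1726164. Its coding sequence runs from 1724306 to 1726051, 582 codons with the stop codon and no intron. The annotated leader before it is 872 bases long. Only 2.24% of 4512 genes with an annotated leader have one at least this long, and the median leader is 99 bases. The leader is poor in G and C (29.8%) beside the coding sequence (42.6%) and chromosome II (35.9%), and base composition affects the signal of a probe. The array numbering was taken to run 895 bases ahead of this reference at inv1. The segment of each probe was the same at all 16 offsets from 890 to 905, a range too narrow to move a probe across a boundary. In a sequence model, the inv1 probes alone fitted best at an offset of 250 (r = 0.52, against 0.44 elsewhere), so they did not settle it. All stretches of inv1 and their base composition rest on the offset of 895. At this offset no probe lies before the annotated gene, so the 16 probes before the coding start all fall in the leader. The first coding bases, III:1724306-1724395, are printed because the profile steps down around this place. The start codon is in capitals.

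inv1 coding start: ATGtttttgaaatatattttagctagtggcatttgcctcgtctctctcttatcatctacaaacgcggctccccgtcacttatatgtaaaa

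The letters CCCCTC, the core of the element that the activator Rst2 binds in the glucose-repressed gene fbp1, were searched on both strands of the 872 bases before the coding start. They were found 0 times there, and 326 of 5144 genes (6.34%) hold them in a stretch of the same length. At inv1 this stretch is the annotated leader, and the DNA before the annotated gene was not searched. With a median leader of 99 bases, the stretch of most other genes reaches past the leader, so the counts cover unlike DNA.

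Array medians of processed intensity ranged from 1018 to 1150 for Cy5 and from 993.2 to 1145 for Cy3. None of the 354 inv1 spots was saturated or marked as an outlier (0 of 354), and all 59 probes were well above background in both channels on all arrays. The deleted gene served as a check of the labels. Over the 31 amo1 probes the log2 Cy3 level, relative to the array median, was -9.41 in amo1D, -0.81 in rix1E414K and -0.72 in pob3D, against -0.91, -0.86 and -0.88 in WT replicates 1, 2 and 3. The genes rix1 and pob3 have no probe.

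The FLAG-H3 ratio was far higher at the probes before the inv1 coding start than at those in the coding sequence on all 6 arrays. Any plasmid copies of the DNA before the coding start would be read together with the chromosomal ones. The mean log2 ratio of the 16 probes before the coding start was 2.68 in amo1D, 2.03 in rix1E414K and 2.05 in pob3D, against 2.32, 2.53 and 1.77 in WT replicates 1, 2 and 3. The WT mean was 2.21 ± 0.39 (SD, n = 3). Over the 35 coding probes it was 1.09 in amo1D, 0.10 in rix1E414K and 0.61 in pob3D, against 1.25, 0.54 and 0.29 in WT replicates 1, 2 and 3, a WT mean of 0.69 ± 0.50. Over the 8 probes after the stop codon it was 0.91 in amo1D, -0.09 in rix1E414K and 0.46 in pob3D, against 0.97, 0.32 and 0.13 in WT (mean 0.47 ± 0.44). The stretch before the coding start was the higher one on every array, and its lowest array mean, 1.77, exceeded the highest array mean of the coding sequence, 1.25.

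**Figure D1:**
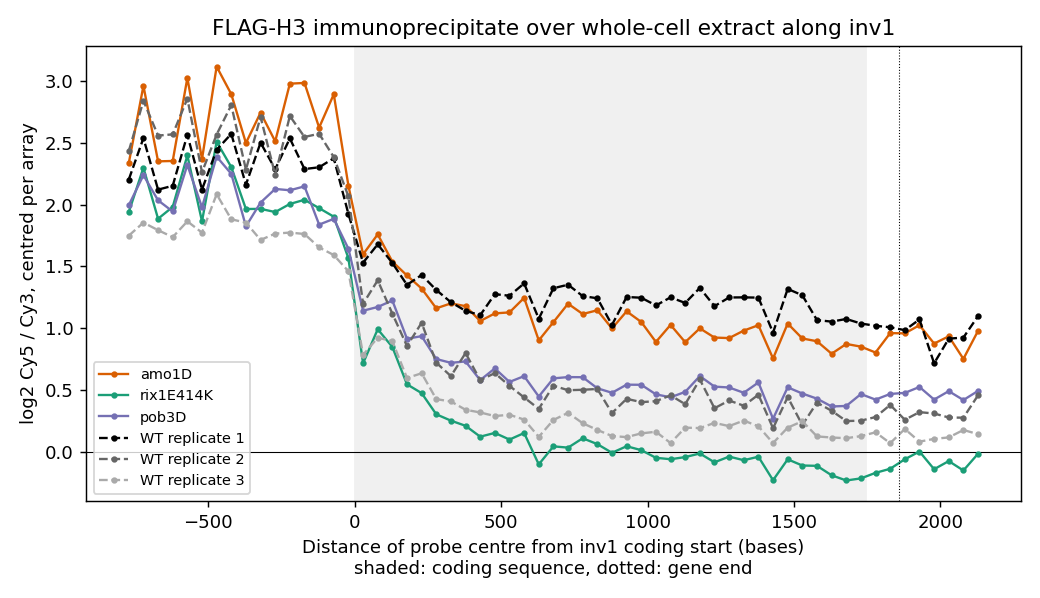
Centred log2 Cy5 over Cy3 (vertical axis) of each of the 59 probes against the distance of its centre from the inv1 coding start in bases (horizontal axis), with 1 line per array, mutants solid and WT dashed. All 6 lines hold a plateau before the coding start, drop around it and flatten along the coding sequence. The WT lines span most of the range of the mutants.

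Coding minus upstream, the difference in log2 ratio was -1.59 in amo1D, -1.93 in rix1E414K and -1.44 in pob3D, against -1.07, -1.98 and -1.48 in WT. The WT mean was -1.51 ± 0.46 (SD, n = 3), and an exact two-sided sign-flip permutation test gave p = 0.25, the smallest p that 3 arrays allow. Each mutant lay inside the range of the WT arrays in this contrast. Relative to the WT mean it was -0.07 in amo1D, -0.42 in rix1E414K and 0.07 in pob3D. Leaving out 1 WT array moved these differences a good deal. They were 0.15 in amo1D, -0.20 in rix1E414K and 0.29 in pob3D without WT replicate 1, and -0.31, -0.66 and -0.16 for the same mutants without WT replicate 2. Within the shared slide, mutant minus WT was -0.51 in amo1D, 0.05 in rix1E414K and 0.04 in pob3D.

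Along the plateau the 16 probes ran from 1.82 to 2.43 in the WT mean, with a median of 2.17 (SD over probes 0.17). On single arrays the SD over probes ran from 0.14 in WT replicate 3 to 0.31 in amo1D, whose probes spanned 2.15 to 3.12. The highest probe in the WT mean was centred 571.5 bases before the coding start. It read 3.03 in amo1D, 2.40 in rix1E414K and 2.32 in pob3D, against 2.57, 2.86 and 1.87 in WT. The lowest was the last probe before the coding start, centred 21.5 bases before it, at 2.15 in amo1D, 1.57 in rix1E414K and 1.64 in pob3D, against 1.92, 2.07 and 1.46 in WT. All 16 were among the 100 highest of all probes on each of the 6 arrays, and they held ranks 3 to 34 of 43969 in the WT mean.

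The ratio was already lower at the last probe before the coding start, and the fall went on over the first 500 coding bases. The neighbouring probe, centred 71.5 bases before the coding start, read 2.89 in amo1D, 1.90 in rix1E414K and 1.89 in pob3D. In WT replicates 1, 2 and 3 it read 2.38, 2.39 and 1.59, and it was above the last probe on all 6 arrays. Between that last probe and the next, centred 28.5 bases inside the coding sequence, the ratio changed by -0.56 in amo1D, -0.85 in rix1E414K and -0.50 in pob3D, against -0.39, -0.87 and -0.68 in WT. These 2 probes overlap by 10 bases, and the sheared fragments were 400 to 600 bases long, many times the distance between them. In the single channels this pair of probes behaved differently from the stretches. Its Cy5 changed by -0.57 in amo1D, -0.15 in rix1E414K and 0.07 in pob3D, against 0.19, 0.07 and -0.17 in WT, and its Cy3 by -0.02 in amo1D, 0.70 in rix1E414K and 0.57 in pob3D, against 0.58, 0.93 and 0.51 in WT. The change of the ratio between these neighbours thus came with a gain of Cy3 of at least 0.51 on 5 of 6 arrays and, in amo1D, with a loss of Cy5. Beyond the step the WT mean in bins of 100 bases was 1.25, 1.06, 0.93, 0.75 and 0.70 over the first 500 coding bases. The bins after that lay between 0.48 and 0.69. The highest coding probe in the WT mean was centred 78.5 bases into the gene (1.33 ± 0.38, SD, n = 3) and ranked 98 of all probes. The lowest, at 1428.5 bases, averaged 0.41 ± 0.49 and ranked 4679. Coding probes beyond 500 bases averaged 0.99 in amo1D, -0.04 in rix1E414K and 0.50 in pob3D, against 1.20, 0.40 and 0.18 in WT.

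After the stop codon the ratio stayed at the level of the late coding sequence, differing from it by -0.24 to -0.03 over the 6 arrays. The 8 probes there spanned 0.38 to 0.57 in the WT mean, the lowest centred 1978.5 bases and the highest 2128.5 bases from the coding start. Of these, 6 lie past the gene end, in the pseudogene SPCC1450.01C on the other strand and in the noncoding RNA gene SPNCRNA.1224, which overlaps the end of inv1. The array does not separate strands.

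Single channels compare different probes, whose signal also depends on their sequence, so levels along the gene are given as a description. Before the coding start, log2 Cy5 relative to the array median was 3.50 in amo1D, 3.11 in rix1E414K and 3.12 in pob3D, against 2.71, 2.95 and 3.17 in WT (2.94 ± 0.23). In the coding sequence it was 1.85 in amo1D, 1.12 in rix1E414K and 1.69 in pob3D, against 1.76, 1.41 and 1.54 in WT (1.57 ± 0.18). Coding minus upstream Cy5 ran from -1.99 to -0.95 over the 6 arrays.

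The mean input signal of each stretch was also above the array median on all arrays, though single probes were below it on 4 of them (up to 12 of 59, in WT replicate 1). Log2 Cy3 before the coding start was 0.82 in amo1D, 1.08 in rix1E414K and 1.04 in pob3D, against 0.41, 0.41 and 1.39 in WT (0.74 ± 0.57). In the coding sequence it was 0.76 in amo1D, 1.02 in rix1E414K and 1.05 in pob3D, against 0.53, 0.85 and 1.24 in WT (0.88 ± 0.36). The difference between these stretches was smaller than its spread between WT arrays. Upstream minus coding Cy3 was 0.06 in amo1D, 0.06 in rix1E414K and -0.01 in pob3D, against -0.13, -0.45 and 0.15 in WT (mean -0.14 ± 0.30, exact two-sided sign-flip permutation p = 0.75, where the smallest possible is 0.25).

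Cy3 also follows base composition. After each value was set against chromosome II probes with the same number of G and C bases, upstream minus coding Cy3 was 0.64 in amo1D, 0.35 in rix1E414K and 0.66 in pob3D, against 0.47, 0.14 and 0.68 in WT (0.43 ± 0.27). The input excess before the coding start over the coding sequence was then positive on 6 of 6 arrays. The adjustment was chosen after the data were seen. It left the coding minus upstream contrast of the ratio at -1.64 ± 0.42 in WT. The coding sequence itself kept adjusted Cy3 levels above 0, at 0.56 in amo1D, 0.92 in rix1E414K and 0.82 in pob3D, against 0.33, 0.65 and 1.07 in WT. By this adjusted Cy3 level of its coding probes, inv1 would rank 70 of 963 genes in the WT mean. Where the ratio of the coding sequence was highest in WT, in replicate 1, Cy3 was lowest, and where it was lowest, in replicate 3, Cy3 was highest. The part of the input channel in the spread of the ratio was not tested.

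**Figure D2:**
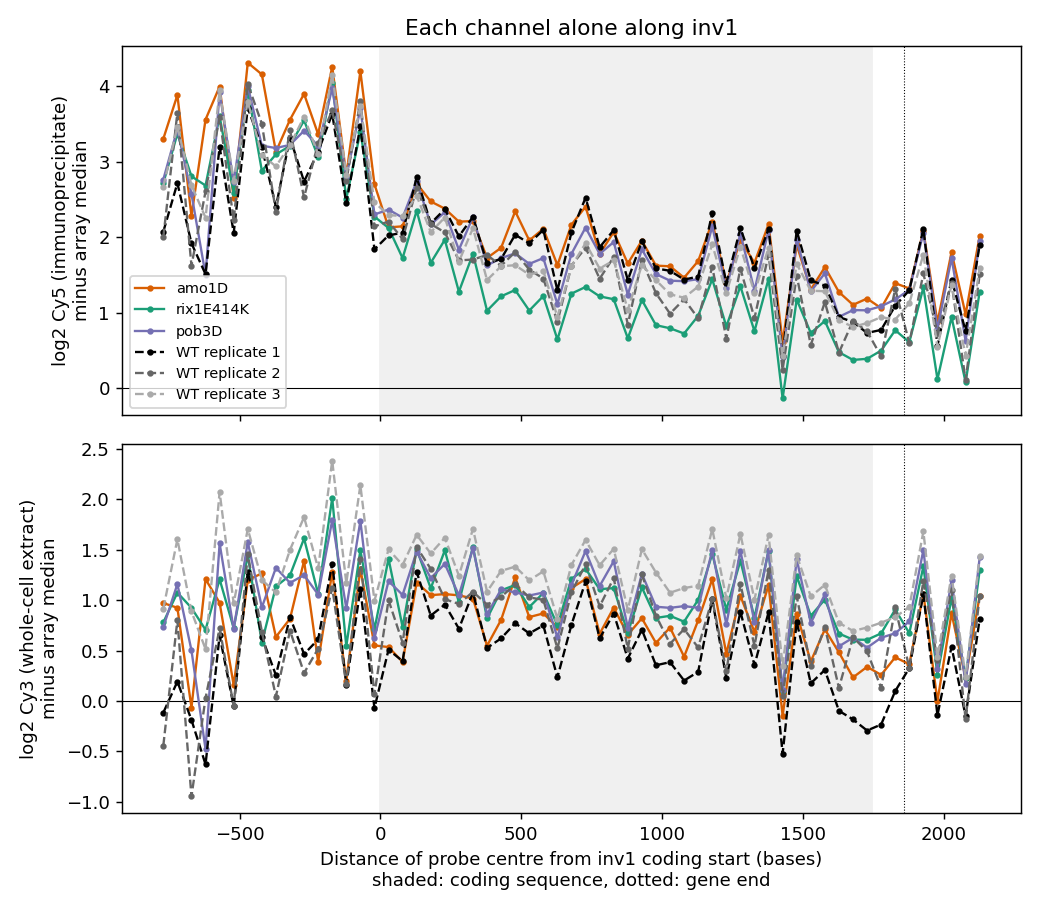
Log2 Cy5 (top) and log2 Cy3 (bottom), each minus the array median, against the distance of the probe centre from the inv1 coding start in bases, 1 line per array. Cy5 is higher before the coding start than in the coding sequence, while Cy3 shows no like fall there and differs more between WT arrays (0.41 to 1.39 before the coding start).

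No difference between a mutant and WT over inv1 passed the test across all genes. Over the annotated gene the mean log2 ratio was 1.56 in amo1D, 0.67 in rix1E414K and 1.04 in pob3D, against 1.56, 1.13 and 0.73 in WT replicates 1, 2 and 3 (1.14 ± 0.42, SD, n = 3). The rix1E414K array was below all WT arrays, as were 24.8% of all genes in that mutant, and the amo1D and pob3D arrays lay between them. In a limma fit over 963 genes, the difference from WT was 0.42 (SE 0.31, unadjusted p = 0.24, Benjamini-Hochberg adjusted p = 0.90) in amo1D. It was -0.47 (same SE, limma adjusted p = 0.74) in rix1E414K and -0.10 (limma adjusted p = 0.91) in pob3D. No gene passed an adjusted p of 0.05 in any mutant (0 of 963, 0% in each, limma), and 4.88%, 5.92% and 12.7% of genes had an unadjusted p below 0.05 in amo1D, rix1E414K and pob3D. Against the WT array on the same slide, the inv1 difference was -0.0018 in amo1D, -0.46 in rix1E414K and 0.31 in pob3D. Within the slide, the amo1D value thus came close to 0 and the pob3D value changed sign. The pob3D sign also turned when WT replicate 1 is left out (0.11).

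The number of probes outside the WT range differed between stretches of the gene, and the difference between mutants in this was not tested. In amo1D, 13 of the 16 probes before the coding start were above all WT arrays, and 25% of all probes were above WT in that mutant. Only 5 of its 35 coding probes were, and 2 of the 8 after the stop codon. The coding count rests on WT replicate 1: without it, 35 of 35 coding probes and 8 of 8 later ones were above the remaining WT arrays, where the share of all probes was 35.2%. In rix1E414K, of the 16 probes before the coding start, 0 were below all WT arrays, but 34 of 35 coding probes and 8 of 8 later probes were, against 23.5% of all probes. The exception was the coding probe centred 78.5 bases from the start. Without WT replicate 3, 15 of the 16 upstream probes were below the remaining WT arrays as well, with a share of 32.9% of all probes. In pob3D, 1 of 59 probes was below all WT arrays, against 30.6% of all probes. Without WT replicate 3, 16 of its 16 upstream probes were below the remaining WT arrays (39.2% of all probes), and without replicate 1, 30 of 35 coding probes were above them (34.6%). Neighbouring probes share DNA fragments and are not independent.

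No inv1 probe passed an adjusted p of 0.05 in any mutant (0 of 59 each, limma over 43969 probes). At an unadjusted p below 0.05 there were 3 in amo1D, all before the coding start, 0 in rix1E414K and 0 in pob3D, against 3.29%, 3.93% and 8.22% of all probes. The amo1D probe with the smallest of these p-values, centred 471.5 bases before the coding start, read 3.12 in amo1D, against 2.45, 2.57 and 2.08 in WT. Its difference was 0.75 (SE 0.21, unadjusted p = 0.0099 and adjusted p = 1.00, limma). The largest amo1D difference was 0.79, at the probe 171.5 bases before the coding start, followed by 0.78 at the one 71.5 bases before it. In rix1E414K the largest were -0.72, -0.71 and -0.71, at coding probes 1178.5, 1478.5 and 1678.5 bases from the start. In pob3D they were -0.34, -0.29 and -0.28, at probes 121.5, 321.5 and 371.5 bases before the start.

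Coding sequence alone gave differences from WT of 0.40 in amo1D, -0.59 in rix1E414K and -0.08 in pob3D, with limma adjusted p of 0.91, 0.73 and 0.93. The stretch before the coding start alone gave 0.47 in amo1D, -0.17 in rix1E414K and -0.16 in pob3D, with limma adjusted p of 0.89, 0.89 and 0.82. Cy5 alone over the gene was 2.32 in amo1D, 1.70 in rix1E414K and 2.10 in pob3D, against 2.02, 1.85 and 2.01 in WT replicates 1, 2 and 3 (1.96 ± 0.10, SD, n = 3). The amo1D and pob3D arrays were above all WT arrays and the rix1E414K array below them. Of all genes, 19.1% in amo1D and 23.1% in pob3D were above all WT arrays in Cy5, and 23.5% in rix1E414K were below. The Cy5 difference was 0.36 in amo1D (SE 0.14, unadjusted p = 0.049, limma adjusted p = 1.00), -0.26 in rix1E414K (adjusted p = 0.93) and 0.14 in pob3D (adjusted p = 0.97). For Cy3 alone it was -0.05 in amo1D, 0.21 in rix1E414K and 0.21 in pob3D, with limma adjusted p of 1.00, 0.83 and 0.96.

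**Figure D3:**
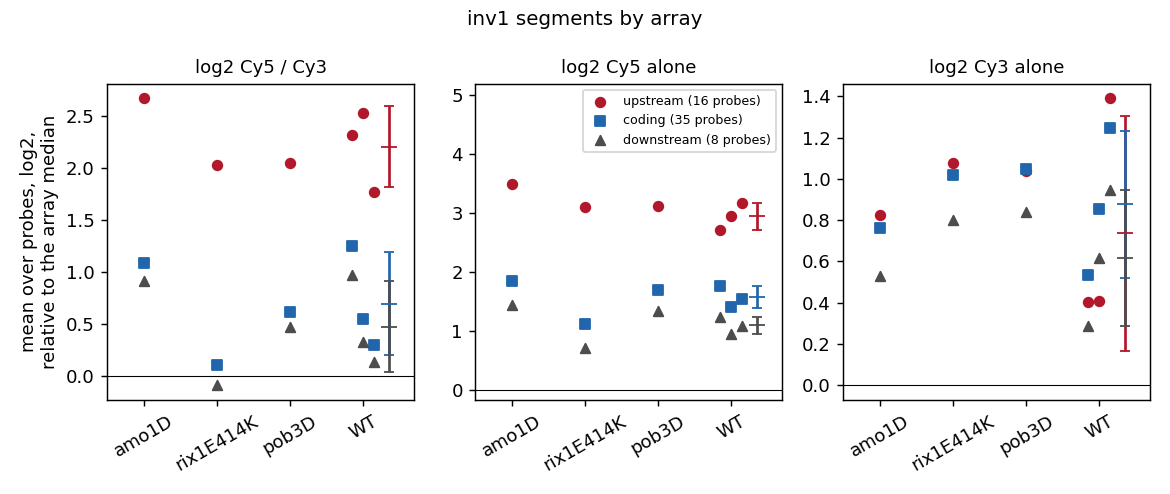
Mean log2 ratio, log2 Cy5 and log2 Cy3 relative to the array median (vertical axes, 1 panel each) of the 3 stretches of inv1 in each array, mutants on the left and the 3 WT arrays on the right. Points are arrays, and bars are the WT mean ± SD (n = 3). The upstream ratio lies above the coding and downstream ratios on all arrays.

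Set against the other genes measured on the array, most of them on chromosome II, inv1 was near the top of the ratio as a whole gene. By its coding probes alone it was lower. Its rank among 963 genes was 3 in amo1D, 12 in rix1E414K and 3 in pob3D, against 2, 3 and 4 in WT replicates 1, 2 and 3. By its coding probes alone it would rank 12 in amo1D, 391 in rix1E414K and 23 in pob3D, against 6, 53 and 100 in WT. The coding rank thus varied between WT arrays far more than the rank of the whole gene.

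The probes of inv1 before the coding start had company at hht2, one of the histone H3 genes, and at nmt1, a thiamine-repressed gene tiled as a patch of chromosome III. Of the 34 highest probes in the WT mean, 16 were those of inv1, 6 lay in the hht2 coding sequence and 8 beyond the nmt1 coding end. The number 34 is the rank of the lowest of the 16 inv1 probes, so that all of them fall inside it by choice. The stretches too were chosen after their values were seen, and are given as a description. The 8 hht2 coding probes averaged 2.59 in amo1D, 1.91 in rix1E414K and 1.82 in pob3D, against 2.09, 2.30 and 1.60 in WT. The 12 probes within 300 bases on either side of that sequence averaged 0.87 in amo1D, 0.49 in rix1E414K and 0.29 in pob3D, against 0.78, 0.80 and 0.51 in WT. The 9 probes beyond the nmt1 coding end averaged 2.34 in amo1D, 1.90 in rix1E414K and 1.94 in pob3D, against 2.09, 2.35 and 1.63 in WT. The other 30 nmt1 probes averaged 1.11 in amo1D, 0.32 in rix1E414K and 0.60 in pob3D, against 1.18, 1.18 and 0.29 in WT.

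On each array the inv1 stretch was the highest of the 3. It exceeded the hht2 coding sequence by 0.08 to 0.23 and the nmt1 stretch by 0.11 to 0.34 on the log2 scale over the 6 arrays, while each of the stretches varied by 0.7 or more between arrays. With base composition adjusted, the excess was 0.30 to 0.54 over hht2 and 0.13 to 0.39 over nmt1. The plasmid name gives an inv1 promoter and an H3 gene. Whether the plasmid holds DNA from beyond the nmt1 coding end is not given in the sources used here, and a part of plasmid DNA in these levels was not tested.

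**Figure D4:**
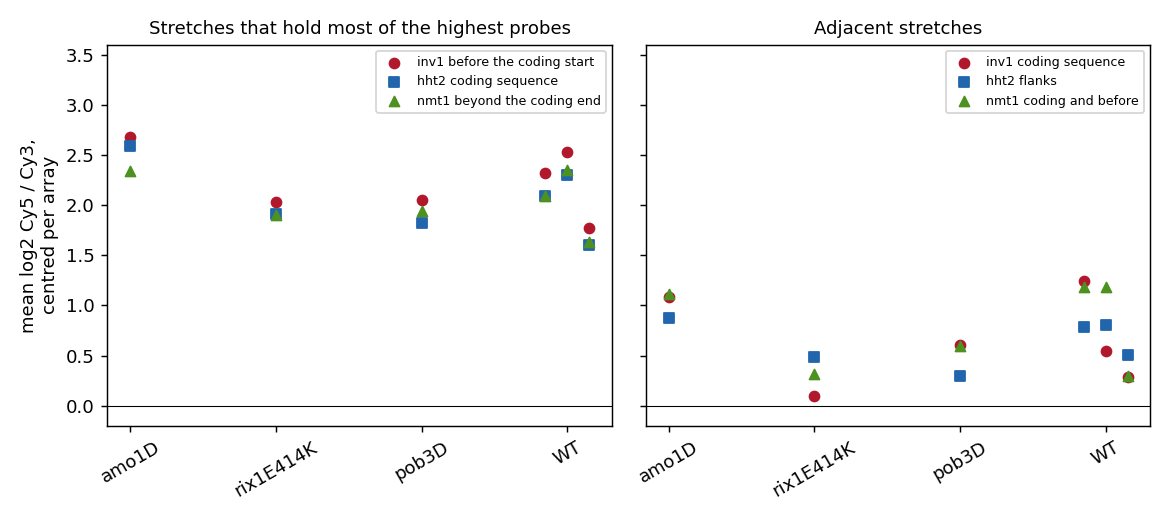
Mean centred log2 Cy5 over Cy3 (vertical axis) by array, mutants on the left and the 3 WT arrays on the right, for the inv1, hht2 and nmt1 stretches that hold most of the highest probes (left panel) and for stretches next to them (right panel). In the left panel the 3 points of an array lie close together and shift together from array to array.

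The genes whose ratio followed inv1 most closely over the 6 arrays were ppi1 (Pearson r = 1.00 to 2 decimals), gas2 (0.99), cwf7 (0.98), SPCC1450.01C (0.97) and tsp0 (0.97), out of 962. All values come from the same 6 arrays, and the 6 probes of SPCC1450.01C are the last ones of the inv1 patch. The cyclophilin gene ppi1 varied little, with 0.22 in amo1D, -0.14 in rix1E414K and 0.02 in pob3D, against 0.24, 0.06 and -0.10 in WT. The gene gas2, for a cell wall glucanosyltransferase, had 0.74 in amo1D, 0.14 in rix1E414K and 0.39 in pob3D, against 0.75, 0.54 and 0.11 in WT. The whole hht2 gene had an r of 0.78 with inv1, nmt1 had 0.89 and hrp1, a chromatin remodeller gene, had -0.66.

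Of 51 genes of sugar use and glucose signalling, 6 were on the array: inv1, gal1, scr1, cyr1, git5 and atf1. Of the other 5, 0 passed an adjusted p of 0.05 in any mutant (limma), and an unadjusted p below 0.05 was reached by 0 in amo1D, 0 in rix1E414K and 2 in pob3D, against 4.88%, 5.92% and 12.7% of all genes. In amo1D 1 of the 5 was above all WT arrays and 0 below, against 24.2% and 27.5% of all genes. In rix1E414K 0 were above and 2 below, against 30.6% and 24.8%. In pob3D 4 of the 5 were above all WT arrays, against 28.2% of all genes, and 1 was below, against 37.9%. Their median difference from WT was -0.01 in amo1D, -0.15 in rix1E414K and 0.39 in pob3D, beside a median over all genes of -0.03 in pob3D and within 0.01 of 0 in the others. The Gβ gene git5, part of glucose sensing, had 0.38 in amo1D, 0.04 in rix1E414K and 0.63 in pob3D, against 0.29, 0.15 and 0.23 in WT (pob3D difference 0.41, limma adjusted p = 0.39). The galactokinase gene gal1 had -0.05 in amo1D, -0.15 in rix1E414K and 0.39 in pob3D, against 0.08, -0.17 and 0.10 in WT (pob3D difference 0.39, limma adjusted p = 0.39). The gene scr1, for the repressor of inv1, had 0.47 in amo1D, 0.21 in rix1E414K and 0.87 in pob3D, against 0.64, 0.21 and 0.60 in WT.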

How the data were processed

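Per the file headers, the authors scanned 6 dual-colour arrays and quantified them with Agilent Feature Extraction 12.0.3.1, which detrended the background spatially and normalized the dyes linearly. Linear intensity values, as processed by that software, make up the deposited scanner files. The series table the authors deposited is a ratio, equal to processed Cy5 over Cy3 within a relative difference of 9.05e-09. The build of the array is not given in the sources used here.

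Here, log2 of processed Cy5 over Cy3, and log2 of each channel, were centred on each array's median. The 1227 control spots and outlier-marked spots were left out, and no loess or quantile step was applied. A gene is the mean of its probes (at least 2), and long noncoding RNA genes were left out. All genes, and all probes, entered a limma (3.58.1) fit under R 4.3.3 with 1 coefficient per genotype, Benjamini-Hochberg adjusted at 0.05. The residual spread comes from WT alone, which assumes that a single mutant array varies as WT arrays do. With 1 array against 3, the smallest one-sided permutation p is 0.25. With 6 arrays, their number limits the precision.

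The design had set gene body against gene upstream. As no probe precedes the annotated gene, the coding sequence was set against the probes before it. The array offset was taken from the gene end in the rule that selected the probes. A sequence model over 3 patches put it at 900, with a correlation r of predicted and measured signal of 0.43, against 0.25 elsewhere. Single patches differed in their best offset. It was 250 at inv1 (r = 0.52, against 0.44 elsewhere), -2919 at nmt1 (0.63 against 0.59) and 903 at hrp1 on chromosome I (0.51 against 0.39). For inv1 and nmt1 together, both on chromosome III, r was 0.38 at 900 and 0.38 elsewhere. The patches of chromosome III alone thus did not settle the offset. Alternatives planned on mean signals used median signals, the ones the files hold.

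The gene, the gene lists and the rule for named genes were chosen with earlier results of these data known. The rule took inv1, hht2, nmt1, hrp1, the neighbours of inv1, the 5 genes most correlated with inv1, up to 3 members of the carbon-source list with the largest difference per mutant, the highest and lowest probe of each inv1 stretch, and the 3 largest probe differences per mutant.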

Additional observations from a re-analysis of the deposited data

How the results depend on the processing

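The gene difference from WT at inv1 ran from 0.19 to 0.67 in amo1D, -0.79 to -0.01 in rix1E414K and -0.38 to 0.19 in pob3D over the alternatives that allow a test (the within-slide values below do not), with limma adjusted p of at least 0.61, 0.43 and 0.36, so no call was made under any. Probes called stayed at 0 in all 3 mutants. Signs turned, untested for cause, within the slide in amo1D (-0.0018) and pob3D (0.31). In pob3D they also turned with quantile normalization (0.012), without WT replicate 1 (0.11, and 0.19 for coding probes only) and for upstream probes only without replicate 2 (0.0027). Leaving out each WT array in turn gave 0.21 to 0.63 in amo1D, -0.67 to -0.26 in rix1E414K and -0.31 to 0.11 in pob3D. For Cy5 alone, rix1E414K turned to 0.17 with upstream probes only. For Cy3 alone, amo1D turned to 0.089 with upstream probes only, 0.17 without WT replicate 3 (from -0.23, without replicate 1) and 0.29 within the slide, and pob3D to -0.24 within the slide. The WT mean of 1.14 was 0.69 for coding probes only, 0.42 to 0.89 without each WT array, and 2.21 for upstream probes only, 2.04 to 2.42 without each (2.15 without replicate 1). For the whole gene it was 0.93 to 1.35 without each array. Coding minus upstream was -1.73 to -1.28 in WT without each array. For the difference between rix1E414K and WT in that contrast, the within-slide value was 0.05 in place of -0.42. Upstream minus coding Cy3 in WT was -0.29 to 0.01 without each array and 0.43 with base composition adjusted, where the sign turned. Leader probes are poorer in G and C than coding probes, and the cause of this turn was not tested. No paired analysis was possible because each mutant has 1 array, so fewer than 2 replicate numbers are shared. Mutant values rest on 1 array each, and signal over background did not limit inv1.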
